A study of Mus musculus with 24 samples.

Results

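The clustered histone genes of the mouse encode the H1, H2A, H2B, H3 and H4 proteins that package DNA as it is copied. They were taken here as every protein-coding gene of GENCODE release M21 whose symbol starts with Hist1, Hist2, Hist3 or Hist4, matched to the count table by Ensembl identifier. The release holds 67 such genes, and 65 of them were among the 51826 identifiers of the table, with Hist1h2bm and Hist1h2bh not matched. The 65 genes comprise 6 H1, 18 H2A, 16 H2B, 12 H3 and 13 H4 genes. On GRCm38, 54 of the 67 lie in the Hist1 cluster on chromosome 13 between positions 21715763 and 23934851, and 10 in the Hist2 cluster on chromosome 3 between positions 96219865 and 96270132. The other clusters are small, with 2 genes in Hist3 on chromosome 11 (58948920 to 58956830) and 1 in Hist4 on chromosome 6 (136801553 to 136804415).

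Each nucleosome is built from H2A, H2B, H3 and H4, while H1 binds the DNA that links nucleosomes. Cells make most of these proteins when they copy their DNA, and the mRNAs of the clustered genes are unusual in ending in a short stem-loop, bound by the protein SLBP, in place of a polyA tail. Some clustered genes can also give a longer, polyadenylated mRNA in cells that have left the cell cycle, as neurons have.

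The study asked how the KIX domain of CBP, a coactivator that binds the memory-related factor CREB, shapes gene expression after learning, and sequenced RNA from the dorsal hippocampus of 24 C57BL/6j mice, labelled as male, aged 2 to 4 months. RNA-Seq 1 used total RNA depleted of ribosomal RNA (Ribo-Zero Gold) and held 3 WT homecage mice, 3 WT mice trained for 3 days in the Morris water maze (MWM) and 3 CBP KIX/KIX mice trained in the same way. RNA-Seq 2 used polyA-selected RNA and held 3 WT homecage mice, 4 WT mice after contextual fear conditioning (CFC), 4 CBP KIX/KIX mice after CFC and 4 CBP KIX/KIX homecage mice. Trained mice were dissected 1 h after their last training. CBP KIX/KIX mice carry point mutations in the KIX domain in every cell of the body, which prevent phospho-CREB and c-Myb from binding there, so that effects within the hippocampus and from other organs cannot be told apart, and WT mice were their littermates. Counts per gene do not read these point mutations, so the genotype labels were not checked against them. For the CBP KIX/KIX homecage libraries the polyA selection is taken from the study's methods.

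Library totals ran from 38174044 to 65709282 counts with total RNA and from 15385836 to 46056290 with polyA RNA, so that 3 counts, taken as the smallest detectable amount, correspond to 0.0457 to 0.0786 and 0.0651 to 0.195 CPM, the counts of a gene scaled to library size. All 5 hippocampal neuron markers checked (Prox1, Wfs1, Fibcd1, Neurod6 and Camk2a) had at least 10 counts in every library. WT homecage replicate 3 of RNA-Seq 1 stood apart from the other homecage mice of its group. Transthyretin (Ttr), a gene of the choroid plexus, was at 1310 CPM there against 72.25 and 81.5 in replicates 1 and 2, mitochondrial genes took 1.99% of its counts against 1.36% and 1.38%, and the tail-less RNA Rn7sk was at 46710 CPM against 74390 and 67230. Trained mice of RNA-Seq 1 also varied in Ttr, from 102.5 to 2179 CPM. Their mitochondrial share was 1.74% to 2.25% and their Rn7sk level 48050 to 59120 CPM. On these last measures homecage replicates 1 and 2 lay farther from the trained mice than replicate 3 did. Because the homecage mice differed in this way, the results that rest on them are also given without replicate 3. Those between library types are given together after the related lists. P-values weigh a difference against the spread between these mice. Between library types they do not cover site, read length or run. In bulk tissue, fewer cells of a type and less RNA per cell cannot be told apart.

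The stem-loop was searched on the transcripts of GENCODE M21 as the letters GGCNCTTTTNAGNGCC (N being any base), and 42 of the 67 genes (62.7%) held it against 3 of 21884 other protein-coding genes (0.0137%). The 3 others were H2afx, H2bfm and Trim17, and the last of these overlaps Hist3h2a. No member held the letters on the opposite strand, and 44 did when 1 mismatch was allowed. The search depends on how far the annotated transcript reaches: of the 25 genes without the exact letters, 17 had fewer than 50 bases annotated past the stop codon, where the members that held it had at least 52. The stem-loops of the members on which the results turn are shown next, 5′ to 3′ on the strand of the gene, with the stem-loop in capitals and up to 5 bases on either side in lower case. Hist1h4d, Hist1h4c, Hist1h4f, Hist1h4m, Hist1h3e and Hist1h3f are shown because they had the largest differences between total RNA and polyA RNA, and the last 5 because they had some of the smallest, so that both kinds can be compared. Hist1h4h, Hist1h3e and Hist1h4i were the members of their families with the highest level per kb in one or both library types.
Hist1h4d: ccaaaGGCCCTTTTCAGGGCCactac
Hist1h4c: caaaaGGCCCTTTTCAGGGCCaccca
Hist1h4f: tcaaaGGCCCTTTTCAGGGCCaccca
Hist1h4m: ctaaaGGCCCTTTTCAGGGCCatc
Hist1h4h: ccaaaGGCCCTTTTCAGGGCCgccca
Hist1h4i: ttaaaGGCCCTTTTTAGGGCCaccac
Hist1h3e: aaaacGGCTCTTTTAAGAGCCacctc
Hist1h3f: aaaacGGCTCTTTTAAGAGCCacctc
Hist2h3c2: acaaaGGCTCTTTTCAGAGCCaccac
Hist1h1c: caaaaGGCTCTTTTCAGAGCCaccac
Hist1h2be: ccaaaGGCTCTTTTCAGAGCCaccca
Hist3h2a: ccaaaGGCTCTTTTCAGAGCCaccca
Hist3h2ba: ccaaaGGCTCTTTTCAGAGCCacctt

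The capitals of Hist1h4d lie at chr13:23581950-23581965 (plus strand), those of Hist1h4c at chr13:23698089-23698104 (minus), of Hist1h4f at chr13:23551291-23551306 (minus) and of Hist1h4m at chr13:21812129-21812144 (plus), all on GRCm38. Those of Hist1h4h lie at chr13:23531458-23531473 (plus), of Hist1h4i at chr13:22040966-22040981 (minus), of Hist1h3e at chr13:23561903-23561918 (minus) and of Hist1h3f at chr13:23544932-23544947 (plus). The others are at chr3:96238485-96238500 (Hist2h3c2, minus), chr13:23739512-23739527 (Hist1h1c, plus), chr13:23585531-23585546 (Hist1h2be, minus), chr11:58955172-58955187 (Hist3h2a, plus) and chr11:58949349-58949364 (Hist3h2ba, plus). All lie past the stop codon, in the 3′ UTR of the annotated transcript. The element differed by family: the 9 H4 genes that held it all began GGCC and closed GGCC, and the 33 genes of the other families all began GGCT and closed AGCC. One form, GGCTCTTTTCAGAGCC, was carried by 26 genes of the H1, H2A, H2B and H3 families. Hist1h4a matched with 1 mismatch, and Hist1h2ak, Hist1h2bc and Hist2h2be had no match in their annotated transcripts.

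The longest annotated ends past the stem-loop were those of Hist1h1d (4884 bases), Hist4h4 (2445), Hist1h2ac (2010), Hist1h2be (1861) and Hist3h2a (1643). The polyA signal AATAAA, searched on the sense strand in the last 50 bases of each annotated transcript, was found in 15 of the 67 genes (22.4%), compared with 15240 of 21884 other protein-coding genes (69.6%). Of the 5 members with the longest ends, Hist4h4, Hist1h2be and Hist3h2a held it, and Hist1h1d and Hist1h2ac did not.

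Histone mRNAs were far more abundant in the total RNA libraries than in the polyA libraries. The members took 1257 to 1735 CPM of unscaled counts in the 9 total RNA libraries (median 1395) and 91.03 to 127.5 in the 15 polyA libraries (median 109.3), so that the ranges did not overlap. In total RNA 58 to 59 members had at least 1 count in a library, and in polyA RNA 31 to 47 had. At least 3 counts were present in all 9 total RNA libraries for 55 members and in all 15 polyA libraries for 14. No count was present in any library for 6 members, Hist1h2aa, Hist2h2aa1, Hist2h2aa2, Hist2h2bb, Hist2h3b and Hist2h3c1. In 5 of these 6, the Hist2 genes, all exon bases are covered by other annotated genes, and a count of 0 there does not tell whether the mRNA was present. Another 5 had counts in total RNA and none in the polyA libraries (Hist1h2ah, Hist1h2ao, Hist1h2ap, Hist1h2ba and Hist1h2bq).

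The families that made up the histone counts also differed. In total RNA, H4 genes took 60.0% to 70.9% of the member counts of a library (median 65.1%), followed by H3 with 11.4% to 13.3%, H1 with 7.8% to 14.5%, H2B with 5.84% to 10.5% and H2A with 2.25% to 2.97%. In polyA RNA, H2B genes led with 52.2% to 59.2% (median 56.3%), then H1 with 15.3% to 27.6% and H2A with 12.6% to 19.3%, while H4 took 4.07% to 6.11% and H3 1.61% to 2.52%. Most of the polyA counts came from 5 genes, Hist1h1c, Hist1h2bc, Hist2h2be, Hist3h2a and Hist3h2ba, which were the ones with at least 100 counts in all 15 polyA libraries. They held 82.5% to 87.2% of the member counts there and 6.68% to 12.4% in total RNA. Those 5 were picked by their polyA counts, so the first share is a description.

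The comparison that both experiments allow is that of the WT homecage mice, 3 with total RNA and 3 with polyA RNA. Library type, site, read length and run changed together between them and cannot be told apart. In edgeR's quasi-likelihood test 52 members were tested and 52 were called at a Benjamini-Hochberg adjusted p under 0.05, 50 of them higher in total RNA, against 69.7% of all 20602 genes tested called in either direction, 37.5% called higher and 32.2% called lower. The median log2 difference was 7.01 over the tested members (6.92 with the members at 0 polyA counts set to their bound) and 0.03 over all genes. Of the 52, 5 had no count and 15 had 1 to 3 counts in the 3 polyA libraries: such genes passed the low-count filter through total RNA alone and had to differ, so the count is a description. The 13 not tested comprise the 6 without any count, Hist1h1t, with 4 counts in total RNA and 3 in polyA RNA, and 6 others with 10 to 55 counts in total RNA and none in polyA RNA. Across all libraries of both experiments, 48 of these 52 members were higher in each of the 9 total RNA libraries than in any of the 15 polyA ones, compared with 18.3% of all 20602 genes, and 2 were lower in each, compared with 36.8% of genes. The members that passed the filter through total RNA alone are among these 52, and the homecage libraries are counted again. These counts too are a description.

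H4 genes encode the partner of H3 in the core of the nucleosome. Hist1h4d had 13141, 12185 and 12352 counts in the total RNA libraries of WT homecage replicates 1 to 3, and 5, 6 and 2 counts in the polyA libraries. Its mean level was 301.7 ± 85 CPM (SD, n = 3) in total RNA and 0.114 ± 0.00305 CPM (SD, n = 3) in polyA RNA, a pooled fold of 2480 with a 95% counting interval of 1450 to 4660. Every total RNA library lay far above every polyA library, and the log2 difference of the fit was 11.32 ± 0.33 (SE). Counting intervals here are exact and cover counting error only. For Hist1h4c, a second abundant H4 gene, the counts were 10547, 9601 and 9714 against 5, 4 and 3, a fold of 2130 (interval 1220 to 4120). Hist1h4f gave 11687 against 6 pooled counts, a fold of 1670 (765 to 4540). Its fitted log2 difference, 10.68, was 11.52 without polyA homecage replicate 1.

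Where polyA counts were 1 to 3 the ratios were wide. Hist1h4m had 5333 counts against 1, a ratio of 4560 with an interval of 819 to 180000, and in this gene 88.12% of the 100-base windows are also present in another gene, so its counts may be shared. Hist1h4a had 4962 counts against 1, a ratio of 4250 (762 to 168000). Among the genes for H3, whose tail carries many of the best-known chromatin marks, Hist1h3e had 3563, 2946 and 3435 counts against 0, 2 and 1, a ratio of 2840 (970 to 13800), and Hist1h3f had 7258 against 3, a ratio of 2070 (708 to 10000). With so few polyA counts, the fitted log2 difference moved with the polyA library left out. That of Hist1h4m, 11.78 with all libraries, was 11.08 without replicate 2 and 13.91 without replicate 3, and that of Hist1h4a, 11.69, was 11.0 without replicate 2 and 13.64 without replicate 1. For Hist1h3e, 11.38 became 10.75 without replicate 1 and 12 without replicate 2, and for Hist1h3f 10.93 became 11.71 without replicate 1. Hist1h2ak, an H2A gene, had 259, 262 and 300 counts in total RNA and 0 in each polyA library, and was at least 234-fold higher in total RNA against a floor of 3 counts over the 3 polyA libraries.

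Not every H4 gene was that far from the polyA libraries. Hist1h4h, the H4 gene with the highest level per length, had 11641, 10301 and 11217 counts against 33, 24 and 13, a fold of 405 (321 to 520). Hist4h4, alone in its cluster, stood at 66.74, 56.24 and 37.9 CPM against 0.1843, 0.1356 and 0.05524, a fold of 359 (221 to 629). Hist2h4 was 52.4-fold higher (42.8 to 64.8) and Hist1h4i 25.5-fold, with 48.08, 39.29 and 27.41 CPM against 1.244, 1.607 and 1.326 for the latter. In all of these H4 genes the lowest total RNA library was replicate 3, and it was still above every polyA library. By family, the median log2 difference was 8.72 for the 13 H4 genes tested, 7.61 for 10 H3, 6.82 for 11 H2A, 6.71 for 5 H1 and 5.90 for 13 H2B.

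The smallest differences were in H1, H2A, H2B and H3 genes. Hist1h1c, which encodes the linker histone H1.2, stood at 69.98, 72.93 and 98.03 CPM in total RNA and at 13.71, 17.62 and 12.87 in polyA RNA, a fold of 5.43 (5.16 to 5.72; edgeR adjusted p = 3.046e-06). Hist1h2be, an H2B gene, was 4.6-fold higher (4.17 to 5.09), and Hist3h2ba, the H2B gene of the Hist3 cluster, 2.55-fold (2.39 to 2.71; edgeR adjusted p = 4.366e-06). The levels of Hist3h2ba were 32.49, 30.56 and 29.15 CPM against 11.98, 12.3 and 10.88, with less spread within each group than Hist1h1c.

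Hist1h2bc, another H2B gene, came close to parity, with 28.34, 28.39 and 37.83 CPM in total RNA against 20.28, 21.73 and 24.2 in polyA RNA. The groups did not overlap, and the fold was 1.51 (1.44 to 1.59; edgeR adjusted p = 0.006327). Hist2h3c2, an H3 gene, was 1.67-fold higher (1.35 to 2.08; edgeR adjusted p = 0.0456) with 70, 99 and 87 counts against 43, 57 and 31. Its adjusted p was 0.0513 to 0.158 in 8 of the alternatives, among them TMM scaling (0.0513), and 59.36% of its 150-base windows are present in another gene.

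Against the direction of the other tested members, Hist2h2be and Hist3h2a were lower in total RNA. Hist2h2be, which encodes an H2B and whose annotated end runs 2192 bases past the stop codon with a polyA signal and no stem-loop letters, was at 5.69, 5.677 and 6.465 CPM in total RNA and at 9.262, 9.664 and 11.49 in polyA RNA. Its polyA level was above all 3 total RNA values in each library, the fold of total RNA over polyA was 0.616 (0.561 to 0.675), and the edgeR adjusted p was 0.0007677. Hist3h2a, an H2A gene that holds both the stem-loop and the polyA signal, was at 7.909, 8.993 and 10.12 CPM against 11.98, 13.25 and 15.69, a fold of 0.7 (0.649 to 0.756; edgeR adjusted p = 0.004682). The groups did not overlap, and 32.99% of the exon bases of Hist3h2a overlap Trim17 or Gm44313. The strand setting of the counting is not given in the sources used here, so reads from overlapping genes cannot be told apart.

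Members were then split by the letters at their annotated ends, for the 59 with a count. The pooled log2 ratio of total RNA to polyA RNA, with members at 0 polyA counts at their bound, had a median of 7.04 in the 28 with a stem-loop and no AATAAA (range 0.74 to 12.16). It was 2.44 in the 9 with both (-0.51 to 8.49), 3.94 in the 5 with AATAAA alone (-0.7 to 12.05) and 6.6 in the 17 with neither (0.6 to 10.76). The 9 with both were Hist1h1c, Hist1h1t, Hist1h2ae, Hist1h2be, Hist1h2bp, Hist2h4, Hist3h2a, Hist3h2ba and Hist4h4. Hist1h1t was near the floor, with 4 counts against 3 (ratio 1.14, counting interval 0.193 to 7.79). It lies below the median of 2.44, which would be higher without it. The ranges overlapped widely. These ratios come from 3 mice a group and are given without a test, since genes of a family share sequence.

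**Figure D1:**
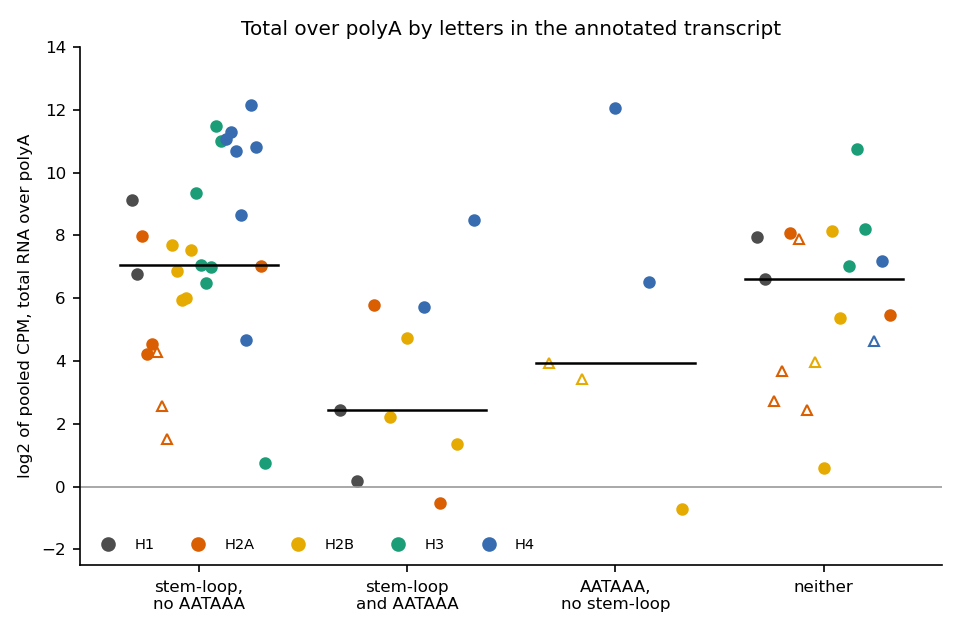
Log2 ratio of total RNA to polyA RNA in WT homecage mice (y axis) for the 59 members with a count, split by whether the annotated transcript holds the stem-loop letters and AATAAA in its last 50 bases (x axis), with bars at the medians and open triangles as lower bounds for members with 0 polyA counts. The medians are 7.04 (stem-loop, no AATAAA), 2.44 (both), 3.94 (AATAAA alone) and 6.6 (neither), and the ranges overlap.

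Per kb of exon, which allows levels to be compared between genes, the order of the members differed between the library types. In total RNA of WT homecage mice Hist1h4h led with 562.6 ± 152 CPM per kb (SD, n = 3), followed by Hist1h4c with 292 ± 84.8, Hist1h4d with 265.1 ± 74.7, Hist1h4f with 235.4 ± 47.6 and Hist1h4k with 193.3 ± 47.7. Neighbours from Hist1h4c to Hist1h4k differed by less than their SD. The highest H3 gene was Hist1h3e with 94.64 ± 26.1, the highest H1 gene Hist1h1c with 51.48 ± 9.88, the highest H2B gene Hist3h2ba with 50.05 ± 2.73 and the highest H2A gene Hist1h2ak with 16.43 ± 3.14 CPM per kb.

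In polyA RNA the order began with Hist1h2bc at 19.09 ± 1.71 and Hist3h2ba at 19.09 ± 1.21 CPM per kb (SD, n = 3), which did not differ. Hist1h1c followed with 9.445 ± 1.63, Hist3h2a with 6.355 ± 0.878 and Hist2h2be with 3.87 ± 0.453, each apart from the next by more than its SD. The highest H4 gene was Hist1h4i with 1.915 ± 0.262 and the highest H3 gene Hist2h3c2 with 1.244 ± 0.381. Of the replacement histones outside the clusters, most are used between divisions and most have ordinary polyadenylated mRNAs. Among them, H3f3b, H1f0 and H2afz give a scale. H3f3b stood at 46.9 ± 3.2 CPM per kb in total RNA and 52.26 ± 2.59 in polyA RNA. H1f0 stood at 39.37 ± 1.02 and 43.54 ± 2.9, and H2afz at 27.14 ± 1.26 and 36.79 ± 0.617. The H4 members leading in total RNA lay above these 3 genes there, and no clustered member reached them in polyA RNA.

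Related lists were measured in the same fit of homecage mice. All 4 other RNAs known to lack a polyA tail were higher in total RNA, with log2 differences of 13.61 for Rn7sk (the 7SK RNA), 14.44 for Rpph1 (the RNA of RNase P), 6.76 for Rmrp and 6.03 for Terc. Of 11 replacement histone genes 1 was called higher in total RNA and 5 lower, with a median of -0.43. The one that was higher, H2afx (log2 difference 0.52), is also the one of them that holds the stem-loop letters. Of the 17 listed genes of histone mRNA 3′ processing and turnover, 15 were tested, 3 were higher (Upf1 1.07, Lsm11 0.98 and Sympk 0.66) and 9 lower, among them Slbp (-0.62), whose protein binds the stem-loop, with a median of -0.39. Of 21 genes of DNA replication and the cell cycle 6 were higher and 5 lower (median 0.01), Mki67 (log2 difference 2.28) and Birc5 (-1.60) being at the ends. All 5 blood genes were higher in total RNA too, with a median of 3.45. The median of the clustered members was 7.01, above that of each of these lists but the tail-less RNAs (10.18). It includes the members that had to differ, so this order is a description. A narrower set, picked by its polyA counts, is the 13 members with at least 10 counts in all 3 polyA libraries. Of these, 11 were higher in total RNA and 2 lower at an edgeR adjusted p under 0.05. Their log2 differences ran from -0.76 (Hist2h2be) to 8.72 (Hist1h4h), and several, such as Hist1h1c at 2.44, lay below the blood median.

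Without WT homecage replicate 3 of RNA-Seq 1, 52 of 52 members tested were again called between library types, and no member's log2 difference moved by more than 0.39. The median was 7.09 over the members and 0.03 over all genes. By family the medians were 8.92 for H4, 7.77 for H3, 6.86 for H2A, 6.64 for H1 and 5.85 for H2B, in the same order as with all libraries. By annotated end they were 7.2 with a stem-loop and no AATAAA, 2.22 with both, 4.18 with AATAAA alone and 6.2 with neither. The list medians were 10.38 for the tail-less RNAs, -0.45 for the replacement histones, -0.41 for histone mRNA processing, 0.1 for the cell cycle and 3.55 for blood. Per kb, the first 11 members in total RNA had the same order, with Hist1h4h at 643 and Hist1h4c at 338.3 CPM per kb (mean of 2 mice), while Hist1h1c was in place 14 in place of 12, with 45.8 CPM per kb.

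In RNA-Seq 1 the learning response was the comparison of WT MWM with WT homecage mice, 3 against 3. With all libraries, 0 of 56 members tested were called by edgeR, against 0.0135% of all 22276 genes (3 genes), and DESeq2 called 80 genes, with 0 members among them. At an unadjusted p under 0.05 there were 7 members (12.5%), all lower after MWM, compared with 11.4% of all genes and 9.38% of all genes on the lower side. The median log2 difference was -0.20 over the members and -0.07 over all genes, with 19.6% of the members and 38.5% of all genes higher. The families were not alike: 10 of 10 H3 and 13 of 13 H4 genes were lower after MWM (medians -0.32 and -0.25), 8 of 15 H2B genes were higher (median 0.01), 4 of 5 H1 genes were lower (median -0.13), and 11 of 13 H2A genes were lower (median -0.18).

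The members nearest to a call were Hist1h3a, Hist1h4k and Hist1h3h. Hist1h3a, an H3 gene, was at 12.08, 10.61 and 9.052 CPM in WT homecage replicates 1 to 3 and at 9.267, 7.518 and 7.271 CPM after MWM, a log2 difference of -0.39 ± 0.14 (SE; edgeR adjusted p = 0.319). The groups overlapped through homecage replicate 3. Hist1h4k, an H4 gene, was at 61.77, 60.52 and 38.29 CPM against 39.57, 42.73 and 39.56 (log2 difference -0.39 ± 0.16 SE; edgeR adjusted p = 0.37), so that homecage replicate 3 was lower than every trained mouse while replicates 1 and 2 were above them. Hist1h3h had a log2 difference of -0.39 ± 0.16 (edgeR adjusted p = 0.378). In the other direction were Hist1h2bf (0.35 ± 0.17, edgeR adjusted p = 0.46), Hist1h2af (0.84 ± 0.45, edgeR adjusted p = 0.485) and Hist1h2bb (0.29 ± 0.22, edgeR adjusted p = 0.611), none of which passed the test.

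Homecage replicate 3 differed from the other homecage mice by family. Among members with at least 50 counts in every total RNA library, all 12 H4 genes were lower in it than the mean of replicates 1 and 2 (median log2 difference -0.68), and so were all 10 H3 genes (-0.57). All 5 H1 genes were higher (median 0.45) and 10 of 11 H2B genes were (0.39), where 11419 of all 22276 genes were higher with a median of 0.01. Summed over H4, the levels of homecage replicates 1 to 3 were 1353, 1171 and 779.1 CPM, those of WT MWM mice 929.6, 953.8 and 858.7, and those of CBP KIX/KIX MWM mice 950.2, 761.7 and 883. Replicates 1 and 2 were thus the highest of the 9 libraries for H4 and replicate 3 among the lowest, and all 13 H4 genes had their highest level in replicate 1. H3 followed the same order within the group, with 253, 215.5 and 156.3 CPM in homecage mice, 180.1, 167.5 and 150.6 in WT MWM mice and 173.4, 144.3 and 165.5 in CBP KIX/KIX MWM mice. H1 did not, with 148.9, 136.6 and 188.7 CPM in homecage mice and 112.8 to 174.4 in the trained mice.

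Other measures also differed across these 9 libraries, not all in the order of H4. Rn7sk was at 74390, 67230 and 46710 CPM in homecage mice and between 48050 and 59120 in the trained mice. Rpph1 was at 32990, 26820 and 16900 CPM in homecage mice and between 18510 and 22030 in trained ones. The share of mitochondrial counts was lowest in homecage replicates 1 and 2 (1.36% and 1.38%) and 1.74% to 2.25% in the 7 others, and the summed level of the 5 blood genes was 181 to 381 CPM in WT homecage, 127 to 244 in WT MWM and 97.3 to 138 in CBP KIX/KIX MWM mice. Their part in the result was not tested.

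**Figure D2:**
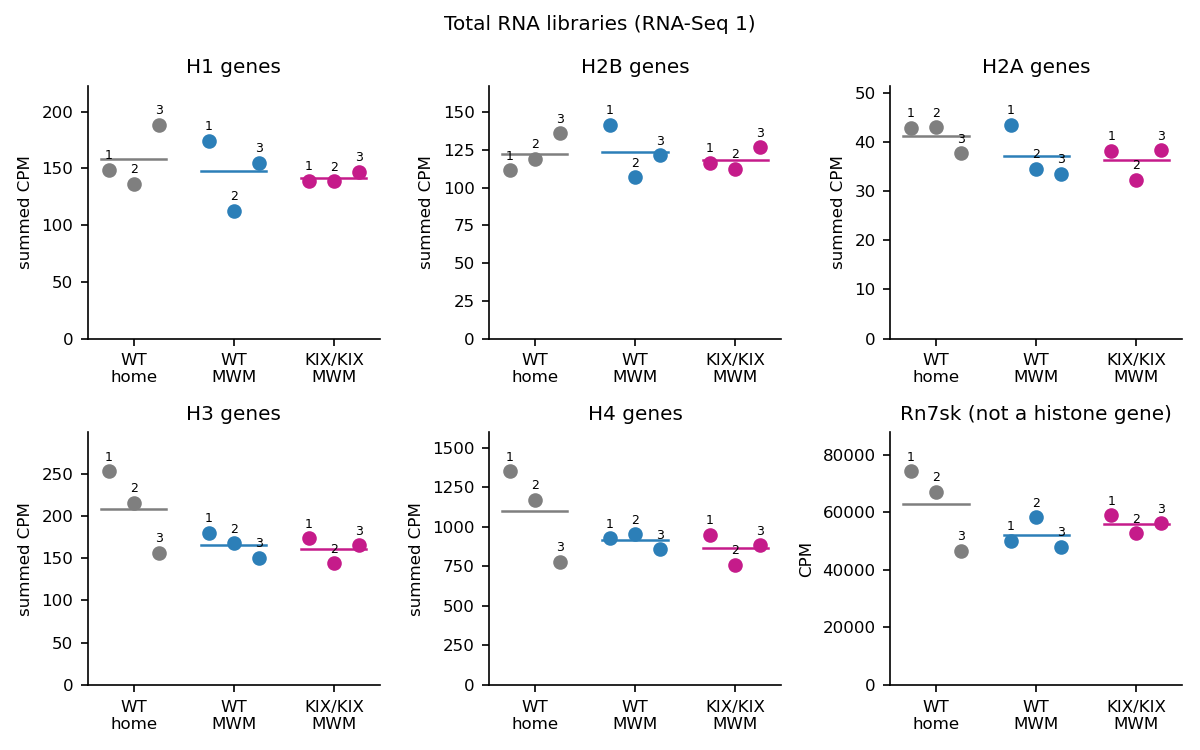
Summed CPM of the H1, H2A, H2B, H3 and H4 members and of Rn7sk (y axes) in the 9 total RNA libraries by group (x axis), with the replicate number as the point and a line at the group mean. H4 is at 1353 and 1171 CPM in WT homecage replicates 1 and 2, above the 7 other libraries (761.7 to 953.8), and Rn7sk is likewise highest in those 2 mice.

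Without homecage replicate 3, 18 of 55 members tested were called, all lower after MWM, against 10.8% of all 22563 genes (2433 genes). They were 11 of 13 H4 genes, 6 of 10 H3 genes and the H2A gene Hist1h2ae, and 0 of 5 H1 and 0 of 15 H2B genes. The medians were -0.47 for H4, -0.48 for H3, -0.26 for H2A, and 0.09 for both H1 and H2B. Hist1h4k had a log2 difference of -0.59 (edgeR adjusted p = 0.008284), Hist1h4a of -0.50 (edgeR adjusted p = 0.01226), Hist1h3h of -0.58 (edgeR adjusted p = 0.01251) and Hist1h4d of -0.46 (edgeR adjusted p = 0.0166). Hist1h4d stood at 330.1, 288.5 and 184.5 CPM in homecage replicates 1 to 3 and at 231.5, 233.9 and 209.8 after MWM, so the direction turns on which homecage mouse is compared. Leaving out any of the 5 other libraries of this comparison gave 0 members. The calls after MWM thus depended on 1 library. Replicate 3 held the lowest H3 and H4 sums of the homecage mice, so leaving it out had to move these families lower. Their genes also moved together between libraries, with a mean correlation of 0.95 among H4 genes and 0.79 between H3 and H4 genes. The 18 calls are therefore not separate results, and their count is a description.

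**Figure D3:**
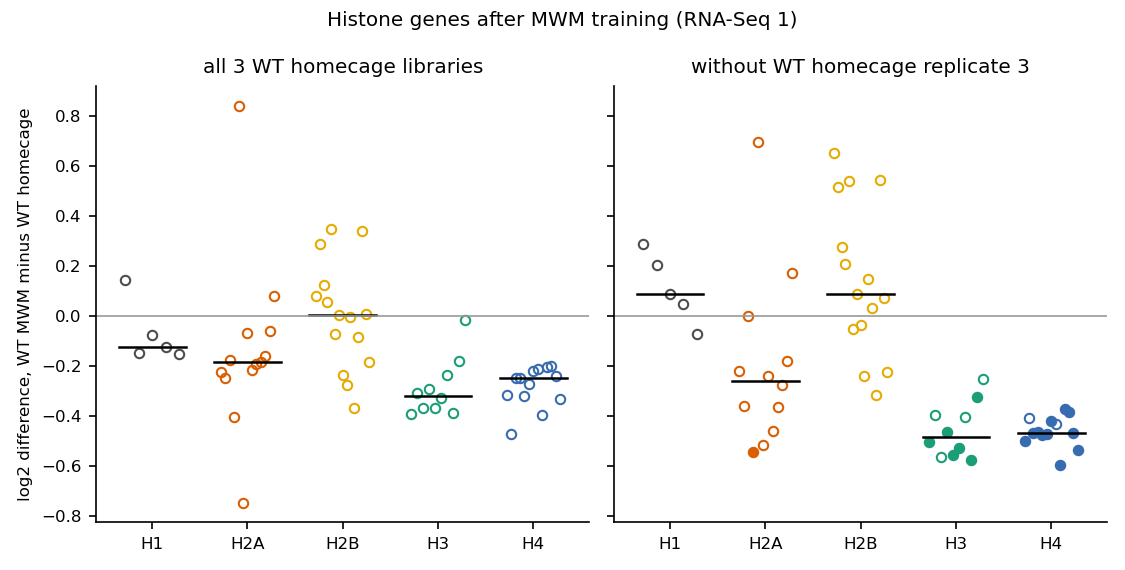
Log2 difference of WT MWM over WT homecage mice (y axis) for each tested member by family (x axis), with all libraries and without homecage replicate 3, with bars at the family medians and filled points for an edgeR adjusted p under 0.05. With all libraries no point is filled, and without replicate 3 the 18 filled points are 11 H4, 6 H3 and 1 H2A gene, all below 0.

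The genotype comparison after MWM, CBP KIX/KIX against WT, gave 0 of 56 members called by edgeR against 0.0% of all 22276 genes, and DESeq2 called 7 genes with 0 members among them. At an unadjusted p under 0.05 there were 2 members (3.57%), compared with 5.89% of all genes. The median was -0.09 over the members and -0.02 over all genes, with 44 of 56 lower in CBP KIX/KIX mice. Those higher were 21.4% of the members, compared with 45.7% of all genes. Hist3h2a was at 8.826, 8.535 and 8.097 CPM in WT and at 10.21, 9.915 and 10.02 in CBP KIX/KIX mice, a log2 difference of 0.24 ± 0.11 (SE; edgeR adjusted p = 0.808). Its groups did not overlap, yet it did not pass the test over all genes. The other member under that p was Hist1h2af, an H2A gene near the floor, at 0.4249, 0.1849 and 0.2313 CPM against 0.1396, 0.1239 and 0.1371 (log2 difference -1.04 ± 0.45; edgeR adjusted p = 0.808). Next came Hist1h4b (-0.59) and Hist1h4j (-0.27) among the lower ones, and Hist1h3b (0.18) and Hist1h2ad (0.17) among the higher ones.

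In polyA RNA 16 members passed the filter on low counts, and 49 did not, including the 6 with no count. Summed over those 49, a polyA library held 26 to 110 counts, or 1.31 to 2.7 CPM. Changes among them were not detectable at this depth. Rn7sk was highest in CBP KIX/KIX CFC replicate 2 (73.85 CPM) and WT CFC replicate 1 (52.01 CPM), the other polyA libraries being at 0.706 to 10.49. Of the 16 H3 and H4 members below the filter that had polyA counts, 1 and 3 had their highest level in those libraries and the rest in 8 other libraries. With so few counts, which library is highest is uncertain. Summed over the 49, those libraries were at 2.67 and 2.59 CPM, against a median of 1.85. The highest sum, 2.7 CPM, was in CBP KIX/KIX homecage replicate 4. Hist1h4d was at 0.3402 and 0.3701 CPM in those libraries and at most 0.1822 in the others. The part of tail-less RNA in these levels was not tested.

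CFC in WT mice gave 0 of 16 members called by edgeR against 0.0% of all 18851 genes, and DESeq2 called 0. At an unadjusted p under 0.05 there were 0 members and 2.74% of all genes. The median was 0.11 over the members and -0.01 over all genes, with 12 of 16 higher after CFC, compared with 46.8% of all genes. Hist2h4, the H4 gene of the Hist2 cluster, was nearest, at 0.9142, 1.001 and 1.164 CPM in homecage mice and 1.009, 1.334, 1.551 and 1.37 after CFC (log2 difference 0.38 ± 0.20 SE; edgeR adjusted p = 1.0). The groups overlapped. Hist1h4i (0.32) and Hist2h3c2 (0.31) followed, and on the lower side Hist2h2be (-0.12), Hist1h2bg (-0.26) and Hist1h4k (-0.15).

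After CFC, CBP KIX/KIX mice differed from WT mice in 0 of 16 members by edgeR against 0.0106% of all genes (2 genes), and DESeq2 called 4 genes with 0 members among them. One member had an unadjusted p under 0.05, 1 of 16 (6.25%) against 2.64% of all genes. It was Hist1h4k, at 0.4374, 0.5427, 0.4364 and 0.1096 CPM in WT and 0.6926, 0.7777, 0.6516 and 0.5301 in CBP KIX/KIX mice, a log2 difference of 0.70 ± 0.29 (SE; edgeR adjusted p = 1.0). The groups overlapped by a little, and 64.32% of the 100-base windows of this gene are present in another gene. Hist1h2bg (0.68) and Hist1h4h (0.50) were next, and among the lower ones Hist2h4 (-0.38 ± 0.19), Hist1h2ac (-0.10) and Hist1h4j (-0.07). Hist1h4k, Hist1h2bg and Hist1h4h had low counts, 2 to 44 in a library of these groups. Each was highest in CBP KIX/KIX CFC replicate 2, the polyA library with the most Rn7sk, whose part was not tested. With each library left out in turn they ranged from 0.5 to 0.97, 0.41 to 0.92 and 0.35 to 0.93.

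The genotype comparison after learning could be set side by side for the 16 members tested in both experiments, which share no mice. The sign agreed for 7 of 16, where it agreed for 54.6% of the 18263 genes tested in both, and for WT learning the sign agreed for 6 of 16 against 51.6%. Hist3h2a was 0.24 ± 0.11 after MWM and 0.16 ± 0.09 after CFC on the log2 scale, and Hist2h4 was -0.22 ± 0.18 and -0.38 ± 0.19. Hist1h4k was -0.04 ± 0.16 and 0.70 ± 0.29, and Hist1h2bc, with far more counts, 0.04 ± 0.12 and -0.03 ± 0.14. A fit over both experiments took the experiment as a batch. With 4 or 0 factors of unwanted variation it called 528 and 5 genes for genotype. With 3 or 0 factors it called 200 and 9 genes for WT learning, and 0 members were among them in all 4 fits. The factors were computed with a re-implementation, so these gene counts are not those that the study reported.

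At baseline, CBP KIX/KIX homecage mice differed from WT homecage mice in 0 of 16 members by edgeR against 0.0159% of all genes (3 genes), and DESeq2 called 58 genes with 0 members among them. At an unadjusted p under 0.05 there were 5 members (31.2%) compared with 9.88% of all genes, and 4 of them were higher, compared with 5.0% of all genes. The median was 0.32 over the members and 0.00 over all genes. In CBP KIX/KIX mice 14 of 16 members were higher, compared with 48.6% of all genes. Some cell cycle and progenitor genes lay on the same side: of 21 genes of DNA replication and the cell cycle, 3 were higher at an unadjusted p under 0.05 and 0 lower (Mcm5 0.53, Mcm2 0.31 and Ccnb1 1.16 on the log2 scale; median of the list 0.10), and of 5 progenitor genes 1 was (Sox11 0.66, median 0.66). None of them was called by edgeR. Their summed levels were 137 to 141 CPM in WT against 138 to 161 in CBP KIX/KIX mice for the cell cycle, and 45.6 to 49.8 against 42.7 to 73.4 for progenitors. Their part in the result was not tested. Hist3h2ba was at 13.98, 14.45 and 12.74 CPM in WT and at 15.8, 17.95, 16.64 and 18.2 in CBP KIX/KIX mice, a log2 difference of 0.31 ± 0.10 (SE; edgeR adjusted p = 0.363). Its groups did not overlap. Hist1h2bc was at 23.66, 25.54 and 28.33 CPM against 27.16, 30.66, 39.84 and 38.54 (0.39 ± 0.15; edgeR adjusted p = 0.423), and Hist1h1c at 16, 20.71 and 15.07 against 23.2, 25.17, 26.97 and 24.29 (0.52 ± 0.22). The log2 difference of Hist1h4i was 0.57 ± 0.23. The groups overlapped for Hist1h2bc and not for Hist1h1c.

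Hist2h2be went the other way, at 10.81, 11.36 and 13.46 CPM in WT homecage mice and 12.22, 8.658, 7.288 and 8.096 in CBP KIX/KIX homecage mice (log2 difference -0.35 ± 0.15; edgeR adjusted p = 0.467). CBP KIX/KIX homecage replicate 1 lay among the WT mice and the 3 others below them. Without that mouse the log2 difference was -0.54 (edgeR adjusted p = 0.0367), the 1 member called, against 2.35% of 18332 genes. In the comparison of CBP KIX/KIX mice after CFC with CBP KIX/KIX homecage mice, 0 of 16 members were called by edgeR against 0.0% of all genes, and DESeq2 called 300 genes. At an unadjusted p under 0.05 there were 3 members (18.8%) and 13.0% of all genes, and the median over the members was -0.07 against 0.01 over all genes. Hist2h2be was at 10.28, 11.86, 13.52 and 10.78 CPM after CFC, a log2 difference of 0.33 ± 0.14 (edgeR adjusted p = 0.339), and without homecage replicate 1 it was 0.51 (edgeR adjusted p = 0.022), against 5.33% of genes called. Hist3h2ba (-0.20) and Hist1h2bc (-0.31) were the 2 lower ones under that p, followed by Hist1h1e (-0.44), and on the higher side by Hist1h2bg (0.43) and Hist1h4h (0.34). Both comparisons share the CBP KIX/KIX homecage mice.

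**Figure D4:**
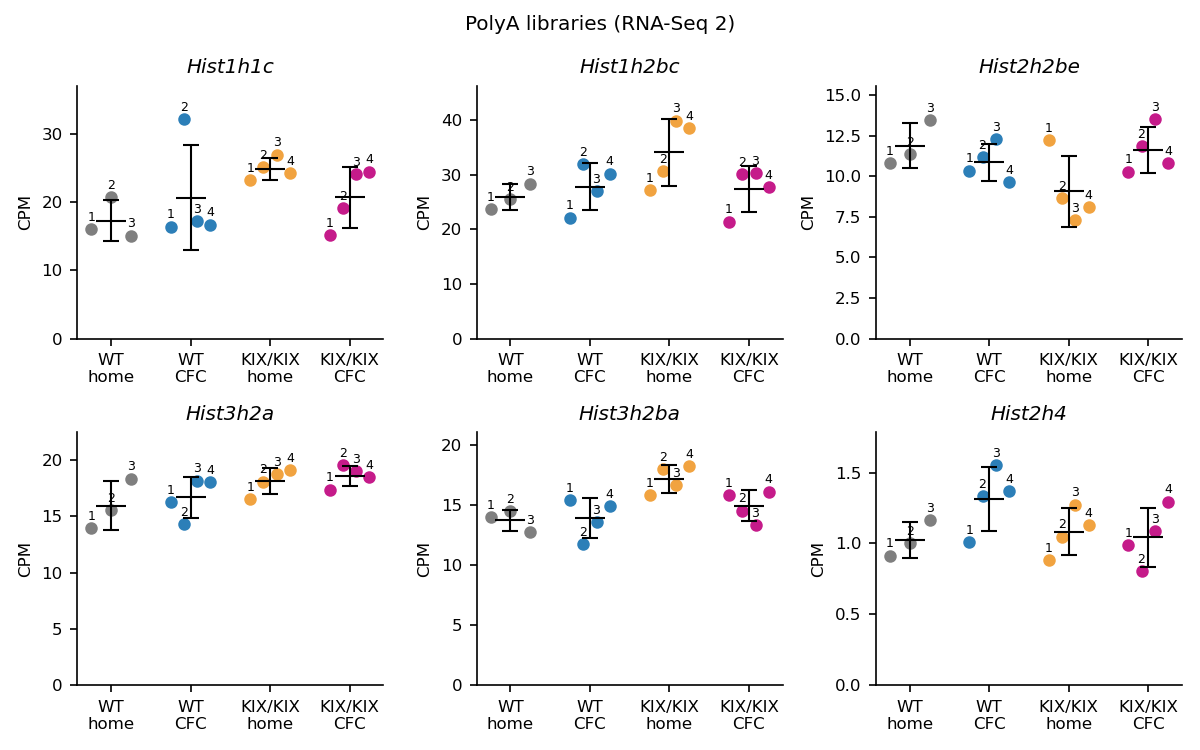
CPM of 6 members (y axes) in the 15 polyA libraries by group (x axis), each point a mouse, with the mean and SD of each group. Hist3h2ba and Hist1h1c in CBP KIX/KIX homecage mice lie above the WT homecage mice, and Hist2h2be lies below them in 3 of the 4 mice.

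The interaction of genotype and CFC, the difference of the learning responses of the genotypes, gave 0 of 16 members by edgeR against 0.0% of all genes, and DESeq2 called 1 gene. At an unadjusted p under 0.05 there was 1 member (6.25%) and 4.93% of all genes. It was Hist2h2be, with a log2 difference of 0.44 ± 0.21 (edgeR adjusted p = 0.944), while Hist1h2bc was at -0.42 and Hist1h1c at -0.54, and the median over the members was -0.29 against 0.01 over all genes. In the 7 comparisons within an experiment, none of the lists of replacement histones, histone mRNA processing, cell cycle and tail-less RNAs held a called gene.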

How the data were processed

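RNA was sequenced from 24 mice in 7 groups, placed by the labels. The authors aligned reads with STAR to GRCm38 (mm10) and counted them with featureCounts 1.4.4, with SAMtools 1.6 among the tools in the submitters' processing notes, and deposited raw counts per gene. The annotation release and strand setting are not given in the sources used here. Of 51826 identifiers, 51633 are in GENCODE M21 and 193 are not. The library preparation of total RNA keeps tail-less RNA, and polyA selection removes it.

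Counts were filtered with filterByExpr, scaled by upper quartile and tested with edgeR 4.0.16 (glmQLFit, legacy=FALSE) in R 4.3.3, within each experiment (9 and 15 libraries) and for WT homecage mice alone. P-values were adjusted by Benjamini-Hochberg over all genes tested, at 0.05. A joint design like that of the study, with re-implemented factors of unwanted variation, was an alternative, since library types were kept apart. CPM are after this scaling, set within each fit, so they differ slightly between the homecage fit and the experiment fits. Counting intervals are exact at 95%. Tables and descriptions used Python 3.11.15, pandas 2.3.3 and scipy 1.17.1, and the fits were tested on simulated data. Over 30 pairs of libraries of one group the chi-square per gene was at least 2.74, so no pair was a copy.

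The members, gene lists and tests were chosen with earlier results of these data known. Named members were the 8 with the largest and 6 with the smallest difference between library types, in each other comparison the 3 of lowest p on either side, the highest per kb of each family, and 7 fixed names. Further members are named where a count or group is listed, and those were chosen after their values were seen. Stem-loops came from the GENCODE transcripts. Alternatives were TMM, DESeq2 1.42.0, no filter, 10 bins of GC content, a replicate block, the groups of the comparison alone, joint fits, each library left out and, added after seeing the data, edgeR's legacy method.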

Additional observations from a re-analysis of the deposited data

Results flagged for a closer look

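In the polyA libraries, WT CFC replicate 2 stood apart from the 3 other mice of its group for a pair of members. Hist1h1c was at 32.2 CPM there and at 16.4 to 17.3 CPM in the others, and Hist1h2be was at 7.03 CPM there and at 4.6 to 4.78 in the others. In both cases the gap to the nearest mouse, divided by the range of the group, was above Dixon's 95% critical value for 4 samples. This was computed for 45 combinations of gene and group, and chance marks about 1 in 20. The same library had the highest level of the choroid plexus gene Ttr among the 15 polyA libraries, 4291 CPM (12.38 to 1857 CPM in the other mice of its group), and the part of this in the result was not tested.

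For Hist1h4i, an H4 gene, the log2 ratio of trained WT mice to the mean of their homecage mice, averaged over the trained mice, was -0.23 after MWM in total RNA and 0.29 after CFC in polyA RNA. The gene passed the test in neither experiment, where the fit gave 0.32 after CFC (edgeR adjusted p = 0.9999). Every trained mouse lay below the mean of its homecage mice in the first and above it in the second, but the groups overlapped in both. WT homecage replicate 3 of RNA-Seq 1 (24.32 CPM) lay below all 3 MWM mice (28.1 to 30.38 CPM), and homecage replicate 2 of RNA-Seq 2 (1.889 CPM) lay above CFC replicates 1 and 3 (1.749 and 1.842 CPM). The difference was not tested.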

How the results depend on the processing

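The number of members called in the comparison of total RNA with polyA RNA was 51 to 54 under each alternative other than testing without a low-count filter, which gave 58 of 59 tested. In WT mice after MWM, 0 members became 0 to 18 when each library was left out in turn, the 18 without WT homecage replicate 3. For the genotypes at baseline and for CFC in CBP KIX/KIX mice, 0 became 0 to 1, with the 1 (Hist2h2be) found without CBP KIX/KIX homecage replicate 1. No other comparison within an experiment gained a call under any alternative. Replicate numbers were not taken to pair the mice, since the labels name no shared litter or day and not every pair of same-numbered libraries correlated above 0.1 in its deviations (3 of 9 in RNA-Seq 1, mean -0.011; 16 of 21 in RNA-Seq 2, mean 0.222). In RNA-Seq 2 the mean was -0.074 for libraries of different number, a hint of pairing in the data. With the replicate number as a block 51 members were called between library types, Hist2h3c2 having been lost (adjusted p = 0.0565), and 0 in each other comparison.

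Signs turned only for named members that had not passed the test, and the cause was not tested. With the replicate block Hist1h2bg at baseline was 0.0 on the log2 scale, and it was 0.0 with TMM, 0.02 without a filter and 0.01 with GC bins. The joint fits give 1 WT learning effect over both experiments, not one for each: it was -0.08 for Hist1h2bb with 3 factors, where MWM alone gave 0.29, and without factors -0.05 for Hist1h4i and -0.08 for Hist2h4, where CFC alone gave 0.32 and 0.38. With each library left out in turn, Hist1h2ad ranged from -0.05 to 0.56 for genotype after MWM, Hist1h4k from -0.43 to 0.1 and Hist1h2bg from -0.51 to 0.08 after CFC, Hist1h2ac from -0.49 to 0.13 and Hist1h4j from -0.13 to 0.01 for genotype after CFC, and Hist1h2bg from -0.26 to 0.34 at baseline.

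Depth limits the polyA results, where 49 members could not be tested. Library type, site, read length and run cannot be separated between the experiments.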
